A study of Homo sapiens with 79 samples.

Results

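The human RecQ family of DNA helicases comprises 5 genes, WRN, BLM, RECQL, RECQL4 and RECQL5, and their mRNAs were followed through RNA immunoprecipitations of 24 proteins in K562 cells. They were picked by gene symbol, which gave 5 of 48453 genes and 51 of 185661 isoforms. WRN led the choice because its mRNA stood more than 10-fold above input in the immunoprecipitation of STAG2, a cohesin subunit. The value of WRN in STAG2 is therefore given as a description without a test, and the question put to the data was whether the mRNAs of its 4 relatives behaved alike, in STAG2 and elsewhere.

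RecQ helicases unwind DNA in the 3′ to 5′ direction and act on structures that arise when replication forks stall or when broken DNA is repaired by recombination, such as forked duplexes, D-loops, Holliday junctions and G-quadruplexes. BLM works with a topoisomerase and the RMI proteins to dissolve double Holliday junctions, and WRN is the member that also carries an exonuclease. RECQL (also called RECQ1) restarts regressed forks, RECQL4 takes part in the start of replication, and RECQL5 restrains recombination and binds RNA polymerase II. Inherited loss of WRN causes Werner syndrome, of BLM Bloom syndrome and of RECQL4 Rothmund-Thomson syndrome. All of this concerns the proteins, whereas every value here is an amount of their mRNA.

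The mRNAs fall into 2 kinds by sequence. The leading WRN isoform is long and AU-rich, with 7575 bases, 35 exons and 38.4% GC, that of BLM has 5240 bases, 22 exons and 41.2% GC, and that of RECQL has 3745 bases, 15 exons and 37.5% GC. RECQL5 has 3669 bases, 20 exons and 58.6% GC. The leading RECQL4 isoform in the files is a fragment of 781 bases, so its full-length transcript was read from the annotation, with 3819 bases, 22 exons and 65.3% GC. Over 13579 mRNAs the medians were 2318 bases, 7 exons and 49.1% GC. The purine word GAAGAAGA, which follows the first bases of a longer degenerate motif that the study derived from SUZ12 values of these same libraries, read on the strand of the transcript only, occurs 5 times in WRN, with 4 of the 5 in coding sequence, 2 times in BLM, 2 times in RECQL and in neither RECQL4 nor RECQL5, and 23.7% of the mRNAs hold it at least once. The AU-rich word TTTTAAAA occurs 2 times in WRN, 3 times in BLM, 2 times in RECQL and not in the other two, against 29.0% of mRNAs with a copy. The GAAGAAGA copies of BLM are shown because SUZ12 enrichment is later set against this word. They were read from the annotation's transcripts on GRCh37 (hg19) and are printed in the sense of the mRNA with the word in capitals.
BLM exon 4, coding, chr15:91295019-91295048, plus strand: aatagcgaaaaGAAGAAGAatttggaagaa
BLM exon 22, 3′ UTR, chr15:91358994-91359023, plus strand: ggctagtctcaGAAGAAGAaatacacatgc
A match is a description of the letters and not a binding site.

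K562 is an established human line from a chronic myeloid leukaemia, and in all groups the cells were untreated apart from crosslinking with 0.1% formaldehyde, with no gene altered. In fRIP-seq the crosslinked lysate is immunoprecipitated with an antibody to 1 protein and the RNA that comes down is sequenced, so an mRNA can be recovered with a complex without touching the protein itself. The RNA-binding proteins precipitated were ADAR, HNRNPH1, HNRNPU, HUR, IMP1 and PABP. The chromatin proteins were the Polycomb subunits SUZ12 and EZH2, the modifiers CBP, PCAF, HDAC1, LSD1, PHF8, WDR5, RBBP5 and DNMT1, the remodellers CHD7, CHD4 and CHD1, and CBX3, phospho-CBX3, CTCF, STAG2 and NUP98. Each had 3 libraries except STAG2 and EZH2 with 2, against 9 libraries of input RNA from lysate that was not immunoprecipitated. STAG2 was put into the panel as a control for background RNA. The study nevertheless found that its STAG2 replicates both enriched a few genes strongly, STAG2 mRNA among them, and proposes that the experiment is valid. The study describes its replicates as coming from separate lysates and dates, and the inputs come in 3 sets of 3. Since neither the labels nor the methods say which set belongs to which fRIP, all 9 inputs served as the common reference, so all 24 comparisons share their control libraries.

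Values are FPKM, fragments scaled to transcript length and library size. The FPKM of a gene is the sum over its isoforms. The same number of fragments gives more FPKM on a short isoform than on a long one. Comparisons between genes therefore depend on which isoforms the fragments were assigned to. Read from the steps between low values, the fRIP libraries held roughly 1.97 to 58.9 M fragments with a median of 13.5 M, and the inputs 12 to 30.6 M with a median of 21.5 M. The 3 ADAR libraries were the shallowest, at 1.97 to 2.33 M. The 7 erythroid and leukaemia-line markers checked (among them GATA1, LMO2, TAL1 and the globins HBG1, HBG2 and HBE1) had input means of 32.4 FPKM or more, while of the markers of other cells shown here EPCAM had 36.2 FPKM and ALB, KRT5 and CD3E under 0.2. In bulk RNA, fewer cells carrying an mRNA and less of it per cell cannot be told apart.

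On GRCh37 (hg19), WRN (ENSG00000165392.5) lies on the plus strand at chr8:30891304-31033654 and has 3 listed isoforms, BLM (ENSG00000197299.6) on the plus strand at chr15:91260577-91359396 with 10, and RECQL (ENSG00000004700.11) on the minus strand at chr12:21621844-21654603 with 8. RECQL4 (ENSG00000160957.7) is the most compact, on the minus strand at chr8:145736671-145743229 with 11 isoforms, and RECQL5 (ENSG00000108469.10) lies on the minus strand at chr17:73622925-73663269 with 19.

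In input, WRN ranged from 27.1 to 39.5 FPKM with a median of 30.6 (31.6 ± 4.12, SD, n = 9), and BLM from 25.3 to 33.8 with a median of 30.9 (29.9 ± 2.92, SD, n = 9). RECQL ranged from 14.8 to 24.8 FPKM with a median of 19.8 (20.02 ± 3.17, SD, n = 9). RECQL4 had the highest FPKM of the 5, at 48.5 to 98.1 with a median of 61.8 (64.7 ± 14.2, SD, n = 9), and RECQL5 ranged from 15.5 to 25.5 with a median of 18.1 (19.7 ± 3.82, SD, n = 9). WRN and BLM overlapped in input, as did RECQL and RECQL5, and RECQL4 lay above all 4 others in every input library. The RECQL4 isoforms found in the annotation are only 324 to 1165 bases long, and its lead in FPKM may rest on them. They held about 450 to 1530 fragments per input library, against 2408 to 5935 for WRN and 1505 to 4357 for BLM. RECQL had 682 to 1693 and RECQL5 481 to 1127. RECQL5 was higher in the 3 libraries of input set 1 (22.7, 25.4 and 25.5 FPKM) than in the 6 of the other sets, where it stayed at 18.4 or below.

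STAG2 was examined first. WRN reached 406 and 442 FPKM in the 2 STAG2 libraries, a log2 difference from input of 3.71 or 13.1-fold, which placed it at rank 9 of 25442 genes. None of its relatives followed. RECQL had 21.0 and 32.8 FPKM, RECQL5 19.2 and 28.0, RECQL4 50.5 and 92.6, and BLM 22.4 and 33.2, and for each of these 4 the STAG2 and input libraries overlapped. In every relative the second library was the higher, so the 2 STAG2 libraries differed from each other by more than their mean differed from input.

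A call required an adjusted p under 0.05 (limma on log2(FPKM + 1), Benjamini-Hochberg over all 25442 genes tested) and a difference over 2-fold. By this rule 0.979% of genes were enriched and 3.36% depleted in STAG2, and 0 of the 4 relatives were called. RECQL was nearest, with a log2 difference of 0.39 ± 0.17 (SE, adjusted p = 0.132 by limma, two-sided exact permutation p = 0.127) and a 95% interval of 0.04 to 0.74. RECQL5 differed by 0.24 (adjusted p = 0.329 by limma, exact permutation p = 0.291), RECQL4 by 0.11 (adjusted p = 0.832, exact p = 0.691) and BLM by −0.12 (adjusted p = 0.628, exact p = 0.473). At an unadjusted p under 0.05 by limma, 1 of the 4, RECQL, passed. The upper 95% bounds were 1.67-fold for RECQL, 1.51-fold for RECQL4, 1.47-fold for RECQL5 and 1.12-fold for BLM, so a rise like that of WRN lay far outside each interval. The intervals take their spread from 1 model of all 79 libraries and not from the 2 STAG2 libraries alone. BLM had 22.4 and 33.2 FPKM in those 2, so its bound may be too tight. With 2 libraries against 9 the exact test cannot go below 0.0182. Without the second STAG2 library RECQL4 and RECQL5 turned to −0.33 and −0.02, and without the first BLM turned to 0.15.

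Across the 24 fRIPs and leaving out WRN in STAG2, 119 combinations of a RecQ mRNA and a protein were tested, of which 14 were enriched and 7 depleted. Over all genes and fRIPs together, 6.9% of the tests were enriched and 5.52% depleted. In 33 combinations all fRIP libraries lay above all 9 inputs, in 18 all lay below and in 68 they overlapped, beside 14.7% above and 12.9% below over all genes. All 21 calls were among those without overlap, and each had a two-sided exact permutation p of 0.00455, the smallest that 3 libraries against 9 can give. WRN was enriched in 3 and depleted in 1, BLM in 2 and 1, RECQL in 2 and 2, RECQL4 in 3 and 2, and RECQL5 in 4 and 1. The calls fell in 12 fRIPs, and in the other 12 (EZH2, PCAF, LSD1, PHF8, WDR5, RBBP5, the 3 CHD proteins, CTCF, NUP98 and, apart from WRN, STAG2) no member was called. Over all genes the enriched share in these 12 ran from 0.263% (NUP98) to 10.5% (EZH2). The depleted share ran from 0.731% (RBBP5) to 9.79% (CHD4). With so few members, counts of 0 there lie near these shares.

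**Figure D1:**
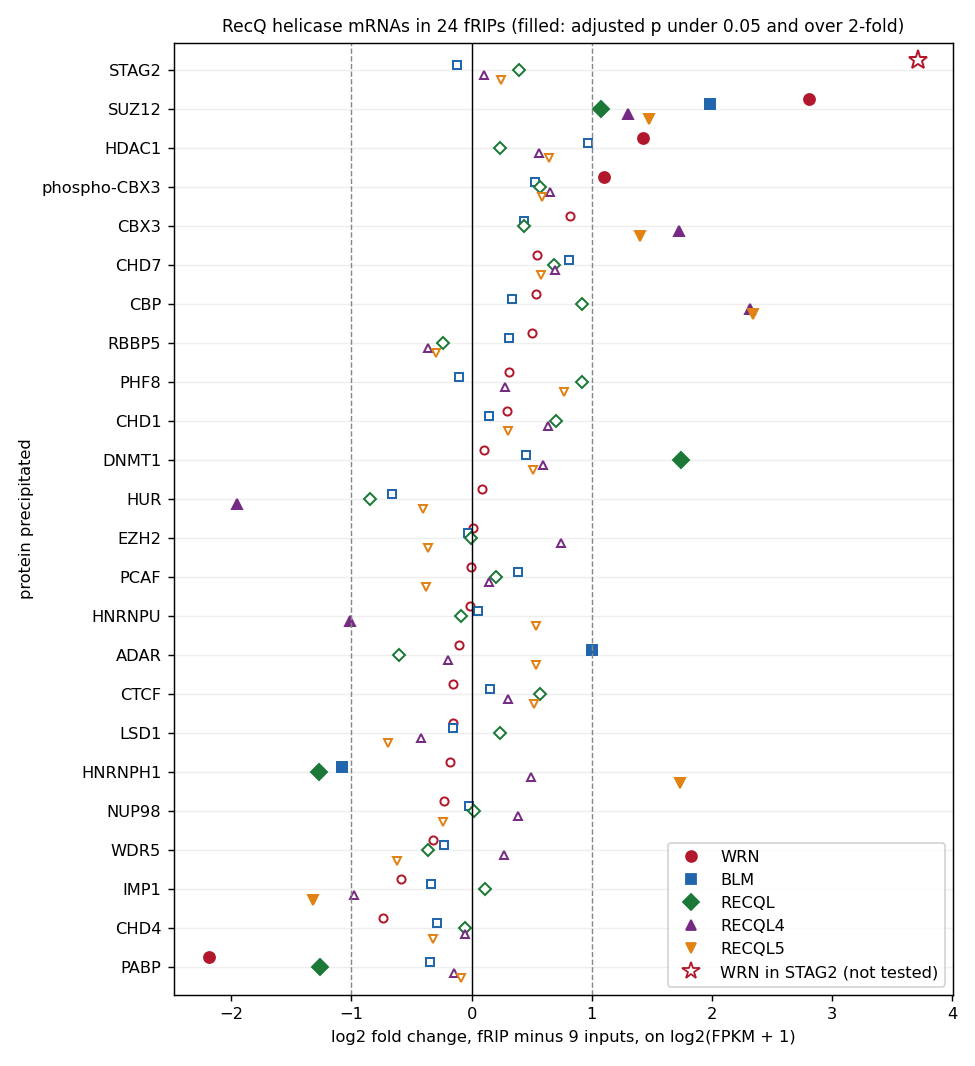
Log2 difference from the 9 inputs, on the log2(FPKM + 1) scale, for the 5 RecQ mRNAs (symbols) in each of the 24 fRIPs (rows). Filled symbols are calls, dashed lines mark 2-fold, and WRN in STAG2 is an open star that was not tested. In SUZ12 all 5 members lie above input, from 1.08 for RECQL to 2.81 for WRN, whereas in STAG2 the 4 relatives of WRN lie between −0.12 and 0.39.

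SUZ12, a core subunit of Polycomb repressive complex 2, was the fRIP in which all 5 members were enriched, against 15.3% of all genes. WRN had 177, 216 and 302 FPKM in the 3 SUZ12 libraries, 7.0-fold above input (log2 difference 2.81 ± 0.14, SE, adjusted p = 9.8e-26 by limma). BLM had 113, 114 and 136 FPKM, 3.95-fold above input (1.98, adjusted p = 7.5e-22 by limma). The lowest SUZ12 library of either gene was more than 3 times its highest input. RECQL5 had 52.0, 45.9 and 73.0 FPKM (log2 difference 1.48), RECQL4 181, 138 and 159 FPKM (1.30) and RECQL 36.5, 47.6 and 45.6 FPKM (1.08). RECQL was the weakest of the 5 and fell under 2-fold (0.92) against input set 3 alone. For every member all 3 SUZ12 libraries lay above all inputs, as they did for 23.9% of all genes.

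EZH2 is the catalytic partner of SUZ12 in the same complex, and 0 of the 5 RecQ mRNAs were called in its fRIP, against 10.5% of all genes enriched and 9.13% depleted. WRN had a mean of 32.2 FPKM in the 2 EZH2 libraries against 232 in SUZ12 (log2 difference 2.80, adjusted p = 1.3e-19 by limma over all genes), and BLM 29.6 against 121 (2.01, adjusted p = 2.2e-16). RECQL5 had 14.9 against 57.0 FPKM (1.84, adjusted p = 2.3e-13) and RECQL 19.9 against 43.2 (1.08, adjusted p = 8.3e-06). RECQL4, at 107 in EZH2 against 159 in SUZ12, did not pass (0.56, adjusted p = 0.106). So 4 of the 5 mRNAs were called higher in SUZ12 than in EZH2, as were 18.5% of all genes, in a contrast added after the values were seen.

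CBP, a histone acetyltransferase and transcriptional coactivator, gave the highest levels of the 2 GC-rich members, with 9.08% of genes enriched. RECQL5 had 101, 93.4 and 115 FPKM in CBP, 5.08-fold above input (log2 difference 2.34 ± 0.13, SE, adjusted p = 1.0e-22 by limma). RECQL4 had 311, 292 and 360 FPKM, 4.97-fold above input (2.31 ± 0.21, SE, adjusted p = 2.2e-14 by limma). In CBP the libraries of all 5 members lay above all inputs, as did those of 17.9% of genes, but WRN, BLM and RECQL stayed under 2-fold.

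CBX3 is the heterochromatin protein HP1γ, and 2 antibodies against it were in the panel. With the CBX3 antibody, where 7.45% of genes were enriched, RECQL4 had 188, 236 and 218 FPKM (log2 difference 1.73, adjusted p = 6.0e-10 by limma) and RECQL5 52.7, 45.8 and 61.1 FPKM (1.4, adjusted p = 2.8e-13). With the antibody to phospho-CBX3, where 2.58% were enriched, WRN was the single member called, at 69.8, 71.2 and 65.0 FPKM (1.1, adjusted p = 5.6e-09 by limma), and this slipped under 2-fold (0.99) against input set 1 alone. Compared directly, RECQL4 was called higher with CBX3 than with phospho-CBX3 (mean 214 against 101 FPKM, log2 difference 1.08, adjusted p = 0.00245 by limma), as were 2.4% of all genes. RECQL5 differed by 0.81 (adjusted p = 0.000287), under the 2-fold limit, and WRN by −0.28 (adjusted p = 0.339).

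Further enrichments touched 1 member each. In HDAC1, a histone deacetylase, WRN had 89.0, 83.5 and 86.0 FPKM, 2.69-fold above input (log2 difference 1.43, adjusted p = 5.6e-13 by limma), against 8.42% of genes enriched. BLM came close there, with a log2 difference of 0.97, and was not called. In DNMT1, the maintenance DNA methyltransferase, RECQL had 64.2, 70.5 and 71.6 FPKM, 3.35-fold above input (1.74, adjusted p = 5.4e-15 by limma), against 9.56% of genes. All 3 libraries lay far above the highest input of 24.8 FPKM, and no other member was called in DNMT1. In fragments, RECQL held about 2495 to 4719 per DNMT1 library, at a median depth of 50.9 M. Input libraries held about 682 to 1693, at a median depth of 21.5 M. The FPKM rise of RECQL also depends on the short isoforms described below, and their part in it was not tested.

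In HNRNPH1, a splicing factor that binds G-rich RNA, the family split. RECQL5 rose to 73.4, 58.4 and 69.8 FPKM (log2 difference 1.73), where 24.5% of genes were enriched. RECQL fell to 8.17, 7.86 and 6.87 FPKM (−1.27) and BLM to 16.7, 13.7 and 11.1 (−1.07), where 7.9% were depleted. When each library was centred on its median gene, which moved this fRIP by −0.73 on the log2 scale and took the share of calls that were enrichments from 75.6% to 28%, RECQL5 dropped to 1.0 and lost its call. BLM did not reach 2-fold without HNRNPH1 replicate 3 (−0.93) or against input set 3 alone (−1.0).

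In ADAR, the enzyme that edits adenosine to inosine in double-stranded RNA, BLM had 61.0, 52.2 and 70.5 FPKM (log2 difference 1.01), where 26.6% of genes were enriched. This call rested on the scale of the libraries. After centring, which moved ADAR by −0.98 and took the share of enrichments among its calls from 86.1% to 24.8%, BLM was at 0.03, and WRN (−1.08), RECQL (−1.58) and RECQL4 (−1.18) were depleted instead. BLM was also under 2-fold without ADAR replicate 3 (0.90), without input set 2 replicate 1 (0.98) or input set 3 replicate 2 (0.996) or 3 (0.98), and against input set 1 alone (0.90).

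**Figure D2:**
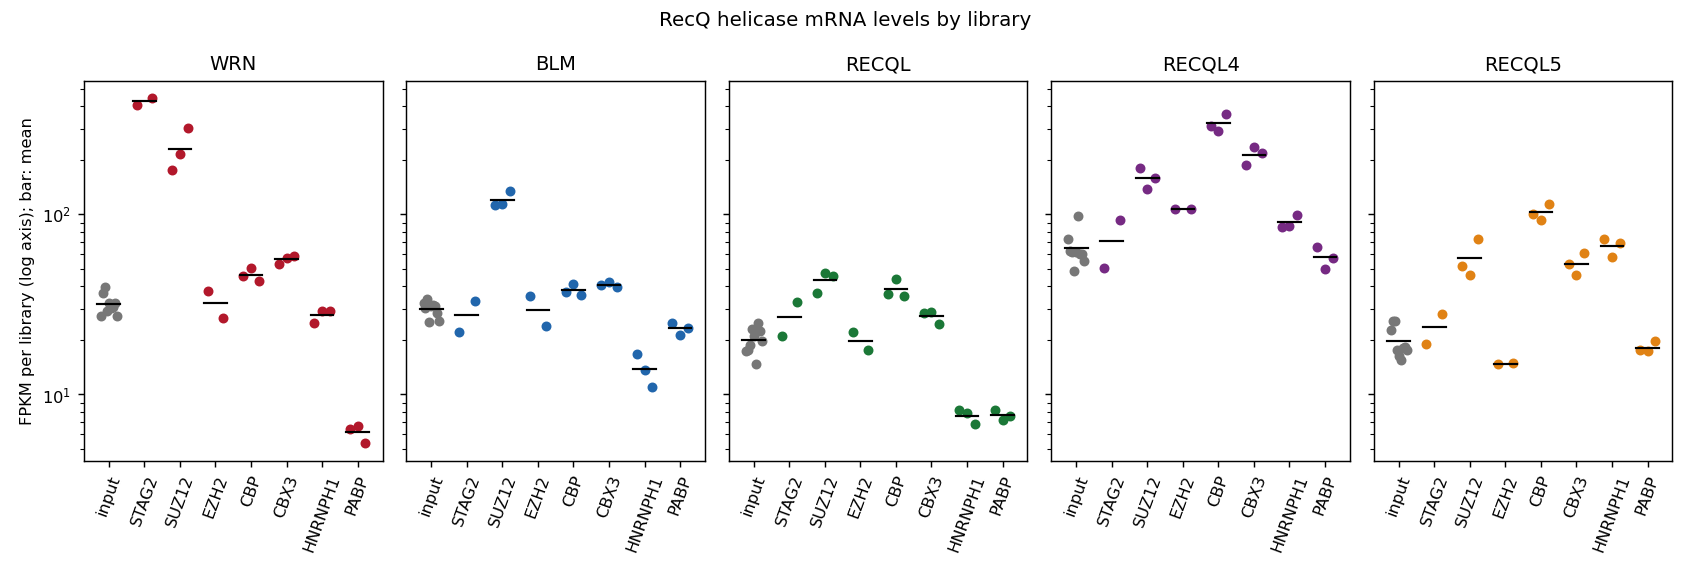
FPKM on a log axis of each RecQ mRNA in every library of the input and of 7 of the fRIPs, 1 point per library with a bar at the group mean. The 2 STAG2 points of WRN (406 and 442) stand above its SUZ12 points (177 to 302), and for RECQL4 the CBP points (292 to 360) stand above its other points.

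Depletion was found in PABP, HUR, IMP1 and HNRNPU besides HNRNPH1. PABP binds the poly(A) tail of cytoplasmic mRNA, and 14.7% of genes were depleted in its fRIP. WRN had 6.44, 6.71 and 5.35 FPKM, 4.54-fold below input (log2 difference −2.18, adjusted p = 2.0e-20 by limma), its lowest mean of the panel, and it kept a log2 difference of −1.69 after centring. RECQL had 8.18, 7.19 and 7.62 FPKM (−1.27) and was at −0.77 after centring, without a call. Centring moved PABP by 0.49 and the share of enrichments among its calls from 43% to 75.2%.

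HUR, a protein that binds AU-rich elements, had 6.93% of genes depleted. RECQL4 had 12.8, 13.5 and 22.2 FPKM there, 3.87-fold below input (log2 difference −1.95, adjusted p = 1.2e-11 by limma), its lowest mean in the panel. The highest of these libraries lay far below the lowest input of 48.5 FPKM. In IMP1, which holds mRNAs in cytoplasmic granules and had 10.5% of genes depleted, RECQL5 had 6.62, 7.67 and 7.24 FPKM (−1.32, adjusted p = 1.5e-12 by limma), and lost the call after centring (−0.87). In HNRNPU, a nuclear matrix protein with 2.52% of genes depleted, RECQL4 had 40.5, 37.5 and 19.4 FPKM (−1.01, adjusted p = 5.6e-05 by limma). That call hung on single libraries, with −0.69 without HNRNPU replicate 3, −0.94 without input set 2 replicate 3, −0.99 without input set 1 replicate 1 and −0.90 against input set 3 alone.

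Centring on the median gene also moved HNRNPU by −0.59 on the log2 scale, IMP1 by 0.46, HDAC1 by −0.29, HUR by −0.25, CBX3 by −0.13 and CBP by 0.10, and of the fRIPs without a called member described next, LSD1 by 0.41, CHD4 by 0.40, WDR5 by 0.38, PHF8 by −0.22 and EZH2 by 0.17. The share of enrichments among all calls went from 83.9% to 25.3% in HNRNPU, from 28.8% to 77.5% in IMP1 and from 61.1% to 29.7% in HDAC1. It went from 48.1% to 20.4% in HUR, from 67.1% to 50% in CBX3 and from 47% to 57.9% in phospho-CBX3. The members named in these fRIPs kept their calls on the centred scale except RECQL5 in IMP1, with WRN at 1.14 in HDAC1, RECQL4 at −2.20 in HUR and at −1.61 in HNRNPU. RECQL gained calls in HUR (−1.10) and in CBP (1.02).

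Several members stood clear of the inputs without reaching 2-fold. CHD7, a chromatin remodeller, had BLM at 57.4, 49.8 and 51.8 FPKM (log2 difference 0.81, adjusted p = 6.3e-07 by limma), RECQL at 32.7, 31.2 and 33.8 (0.69) and RECQL5 at 30.7, 28.3 and 29.5 (0.58), each above every input, as were 6.69% of all genes. In PHF8, a histone demethylase, RECQL had 35.9, 30.1 and 52.0 FPKM (0.92) and RECQL5 32.8, 34.9 and 33.5 (0.77), above every input as 11.8% of all genes were. With phospho-CBX3, BLM (0.53), RECQL (0.57) and RECQL5 (0.59) also lay above every input, so that 4 of the 5 members did, against 9.89% of all genes. On the low side, RECQL4 in IMP1 had 30.4, 31.1 and 34.0 FPKM (−0.98, adjusted p = 9.3e-05 by limma), just short of the limit. WRN (−0.59) and BLM (−0.34) lay below every input there too, so that with RECQL5 4 of the 5 members did, against 23.6% of all genes. After centring, BLM in IMP1 turned to 0.12, with WRN at −0.13 and RECQL4 at −0.52. WRN in CHD4, the remodeller of the NuRD complex, had 19.6, 17.0 and 19.0 FPKM (−0.73), below every input as 21.5% of genes were. RECQL (−0.85) and BLM (−0.66) lay below every input in HUR, against 13.3% of all genes. RECQL5 did so in LSD1 (−0.69), against 15.1%, and in WDR5 (−0.62), against 16.7%. EZH2 held RECQL4 at 107 and 107 FPKM, above every input (0.74) as 19.1% of genes were, with RECQL5 at 14.8 and 14.9, below every input (−0.36, adjusted p = 0.0522 by limma) as 21.9% were.

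Ordered by mean level, WRN ran down from STAG2 to SUZ12, HDAC1, phospho-CBX3 and CBX3, with no overlap between the libraries of neighbours in that order. RECQL4 likewise ran down from CBP to CBX3, SUZ12 and EZH2 without overlap. For BLM SUZ12 stood apart from ADAR, the next, while ADAR overlapped HDAC1 and HDAC1 overlapped CHD7, which in turn stood apart from phospho-CBX3. RECQL in DNMT1 stood apart from SUZ12, after which SUZ12, PHF8, CBP and CHD1 each overlapped the next. RECQL5 in CBP stood apart from HNRNPH1, then HNRNPH1, SUZ12 and CBX3 each overlapped the next, and CBX3 stood apart from PHF8.

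The isoform table showed which transcripts carried these differences. Of the 51 isoforms 45 passed the filter of 1 FPKM in at least 2 libraries, and over the 24 fRIPs leaving out WRN in STAG2, there were 109 enriched and 64 depleted calls, with 8 and 6 in WRN, 20 and 12 in BLM, 17 and 6 in RECQL, 31 and 21 in RECQL4 and 33 and 19 in RECQL5. Over all isoforms and fRIPs, 7.29% of the tests were enriched and 5.47% depleted. With other processing the enriched calls of the members ran from 97 to 113 and the depleted ones from 41 to 96. FPKM was divided among overlapping isoforms by the authors' software from short read pairs, so an isoform listed at 0 may be a failed estimate.

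In STAG2 the WRN signal sat in the full-length mRNA. ENST00000298139.5, the coding isoform with 35 exons, had 404 and 433 FPKM against 21.8 to 29.3 with a median of 23.9 in input, and made up 98.8% of WRN FPKM against 78.6% in input. The short retained-intron isoform ENST00000520169.1 of 629 bases had 2.36 and 8.47 FPKM, against 4.73 to 10.7 in input. These values are descriptions of the gene that led to the choice. Of the 42 isoforms of the 4 relatives tested in STAG2, 0 were enriched, against 1.98% of all isoforms, and 1 was depleted, against 2.82%. That one was ENST00000579265.1, a retained-intron isoform of RECQL5 with 0.604 and 0 FPKM against 1.41 to 4.92 in input (log2 difference −1.5, adjusted p = 0.0205 by limma).

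In SUZ12, where 21.3% of isoforms were enriched, the call held for 19 of the 45. The full-length WRN isoform had 112, 142 and 208 FPKM (log2 difference 2.55) and the retained-intron isoform 63.4, 71.5 and 92.1 FPKM against 4.73 to 10.7 in input (3.36, adjusted p = 2.1e-17 by limma). The share of the full-length form in WRN FPKM was thus 66.2% in SUZ12, below its 78.6% in input, where STAG2 had it at 98.8%. PABP had it at 98.4%, since the retained-intron isoform was at 0.186, 0 and 0 FPKM there (−2.80, adjusted p = 1.9e-14 by limma). Differences between fRIPs in these shares were not tested.

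**Figure D3:**
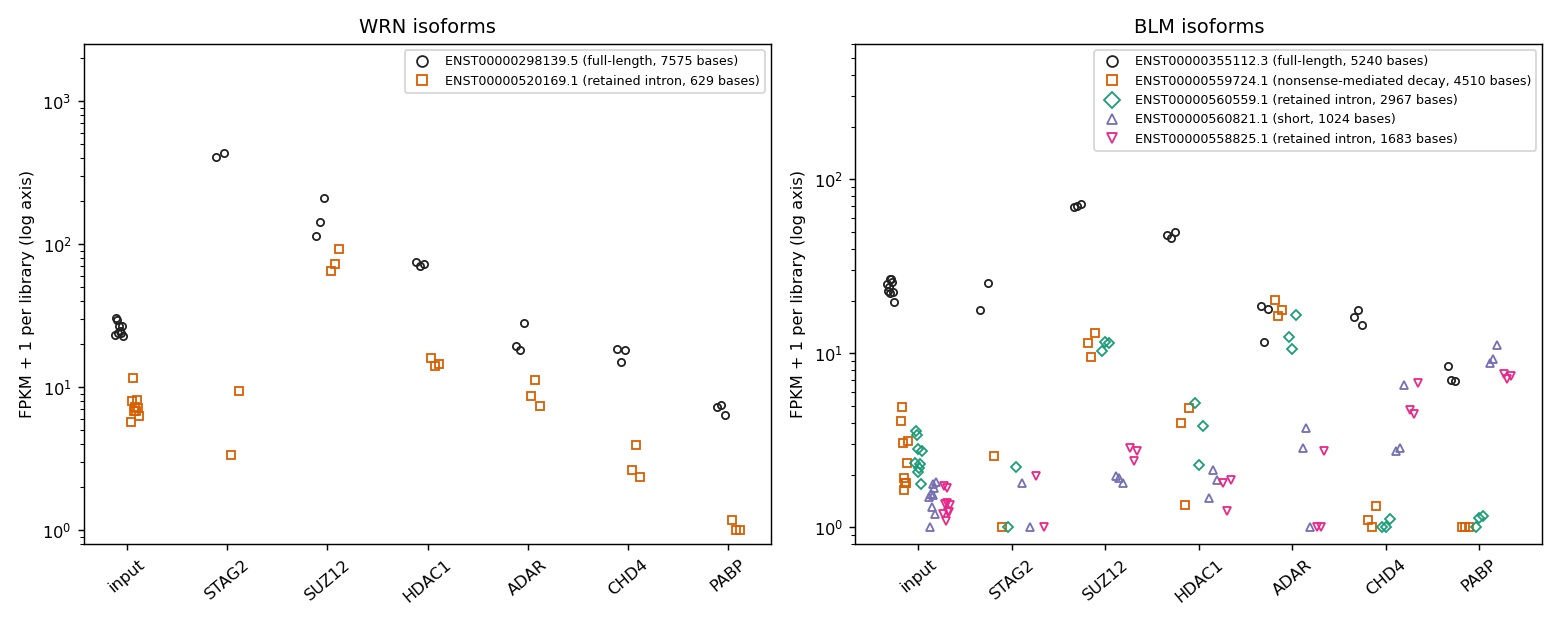
FPKM + 1 on a log axis of 2 WRN and 5 BLM isoforms (symbols) in each library of the input and of 6 fRIPs, 1 point per library. For WRN the retained-intron isoform reaches 63.4 to 92.1 FPKM in SUZ12 but 2.36 and 8.47 in STAG2, while the full-length isoform is high in both.

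For BLM the isoforms moved apart. The full-length ENST00000355112.3 had 7.52, 6.02 and 5.92 FPKM in PABP against 18.8 to 25.9 in input (log2 difference −1.68), whereas the short ENST00000560821.1 had 7.76, 8.33 and 10.2 against 0 to 0.827 (2.73) and the retained-intron ENST00000558825.1 had 6.67, 6.10 and 6.42 against 0.0960 to 0.731 (2.45). The gene total in PABP was not called in FPKM (−0.34), a total that includes these shorter isoforms. In fragments, BLM held about 1082 to 1290 per PABP library, at a median depth of 20.1 M. Input libraries held about 1505 to 4357, at a median depth of 21.5 M. Every PABP library thus held fewer BLM fragments than any input library, a difference that was not tested. In PABP 4 of the 45 isoforms were enriched and 15 depleted, against 9.69% and 16.1% of all isoforms. In ADAR, where the gene was called and 17.3% of isoforms were enriched, the full-length BLM isoform was not above input at 17.7, 10.6 and 16.9 FPKM (−0.60). There the nonsense-mediated-decay isoform ENST00000559724.1 had 19.3, 15.4 and 16.7 FPKM against 0.643 to 3.93 (2.82), and the retained-intron ENST00000560559.1 had 11.3, 9.56 and 15.5 against 0.769 to 2.60 (2.35).

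In DNMT1, where 13.8% of isoforms were enriched, RECQL was not carried by its leading isoform, since ENST00000444129.2 had 4.81, 5.15 and 3.68 FPKM against 6.27 to 9.39 in input (log2 difference −0.69, not called), while ENST00000539672.1, a short isoform of 579 bases, had 10.01, 12.8 and 18.005 against 0 to 1.004 (3.42, adjusted p = 1.6e-10 by limma). ENST00000396093.3, with 7 exons, had 13.4, 15.6 and 13.7 FPKM (2.42). In PABP the isoform ENST00000421138.2 had 0.265, 0.0672 and 0 FPKM against 4.35 to 9.14 (−2.69), and the leading isoform was near its input level (−0.20).

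For RECQL4 in CBP, where 17 of the 45 member isoforms were enriched against 13.4% of all isoforms, the retained-intron ENST00000534270.1 rose most among the isoforms described here for CBP, to 37.03, 31.3 and 46.8 FPKM against 1.16 to 3.00 in input (log2 difference 3.67, adjusted p = 1.5e-17 by limma). The retained-intron isoforms of RECQL5, ENST00000579265.1 (2.85) and ENST00000585205.1 (2.76), also rose in CBP, and so did its leading coding isoform ENST00000317905.5, at 19.1, 21.8 and 25.9 FPKM against 2.57 to 7.59 (1.99). In HNRNPH1, with 20.8% of isoforms enriched and 11% depleted, that coding isoform was near 0 in all 3 libraries (−2.54), while ENST00000420326.2, which has 8 exons, had 7.92, 7.26 and 11.1 FPKM against 1.26 to 2.72 (1.83). In CBX3 15 of the 45 were enriched, against 13.1% of all isoforms.

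Neighbouring and overlapping genes were checked because whether the counting used strand is not given in the sources used here. RP11-363L24.3, a non-coding gene on the opposite strand that overlaps WRN, had 5.27 and 17.7 FPKM in STAG2 against 2.45 ± 1.42 (SD, n = 9) in input (log2 difference 1.78, adjusted p = 0.0083 by limma), and it shares 1.04% of the 31-base words of WRN. PURG, which lies beside WRN, stayed under 1 FPKM in every library. PYROXD1, which overlaps RECQL on the opposite strand and holds 36.6% of its 31-base words, was not called in DNMT1 (0.24, adjusted p = 0.429 by limma) but was in SUZ12 (1.11, adjusted p = 5.0e-05), so the RECQL value in SUZ12 is uncertain by that overlap. In SUZ12, RP11-363L24.3 was enriched as well (1.61, adjusted p = 0.000755 by limma), at a mean of 8.63 FPKM beside 232 for WRN. BLM shares 7.42% of its words with ENSG00000287061, an opposite-strand gene for which no values were analysed here. RP11-387D10.2, which lies beside BLM on the opposite strand, rose in ADAR (2.55, adjusted p = 2.2e-12 by limma), the fRIP in which the BLM call rested on the scale of the libraries.

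RECQL4 is overlapped on the opposite strand by CTD-2517M22.17, which shares 3.05% of its words and rose in SUZ12 (log2 difference 1.61), CBP (2.24) and CBX3 (1.83) and fell in HUR (−1.21), as RECQL4 did. It also rose in HNRNPH1 (1.55) and PHF8 (1.31) and fell in ADAR (−1.09), IMP1 (−1.09), LSD1 (−1.05) and RBBP5 (−1.12), where RECQL4 was not called, and it was not called in HNRNPU, where RECQL4 was. Of the genes within 5 kb of RECQL4, GPT (2.23), LRRC24 (2.07) and MFSD3 (2.0) rose in CBP, and MFSD3 fell in HUR (−1.15). SMIM5 overlaps RECQL5 and holds 15.9% of its words on the opposite strand. It rose with RECQL5 in HNRNPH1 (1.98), as did SMIM6 (1.87), and fell with it in IMP1 (−1.20), as did SMIM6 (−1.02), but in SUZ12 neither was called (−0.10 and −0.52), nor in CBP (0.27 and −0.24). MYO15B, whose end overlaps that of RECQL5 by 5 bases, rose in HNRNPH1 (2.61), SUZ12 (2.14), CBP (2.92) and CBX3 (2.31), and SAP30BP, which lies beside RECQL5, rose in CBP (1.39) and fell in IMP1 (−1.11). In PABP, where WRN fell, RP11-363L24.3 (−1.36) and the overlapping pseudogene RP11-473A17.1 (−2.09) fell too. Their part in the values of the members was not tested.

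The other genes of the pathway were described as 3 lists. In STAG2, 0 of 24 RecQ partners, 0 of 27 other DNA helicases and translocases and 0 of 21 recombination repair genes were enriched, with median log2 differences of 0.23, 0.21 and 0.07 beside −0.03 over all genes. The one depleted gene was RPA3, a subunit of the single-strand binding protein RPA (27.3 against 70.4 FPKM; −1.29, adjusted p = 7.1e-05 by limma). With 0.979% of all genes enriched in STAG2, counts of 0 in lists of this size lie near the share over all genes. In SUZ12, 8 of 24 partners were enriched and 4 depleted (median 0.64), 19 of 27 helicases (1.64) and 15 of 21 recombination genes (1.49) were enriched with 0 depleted, beside a median of 0.01 over all genes, of which 15.3% were enriched and 8.6% depleted. The largest were GEN1, a Holliday junction resolvase (3.00), BRIP1, a helicase partner of BRCA1 (2.78), and the checkpoint kinase ATR (2.71).

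In CBP, where 9.08% of all genes were enriched, 4 of 24 partners, 9 of 27 helicases and 2 of 21 recombination genes were, the last near the share over all genes, led by the helicase PIF1 (2.57) and the nuclease subunit MUS81 (1.95). In HDAC1, against 8.42% of all genes, 8 of 21 recombination genes, 6 of 27 helicases and 2 of 24 partners were enriched, the partners again near the share over all genes. Among those enriched were the polymerase-helicase POLQ (1.87) and the kinase ATM (1.65). In PABP, against 14.7% of all genes, 9 of 27 helicases, 7 of 21 recombination genes and 4 of 24 partners were depleted, with RIF1 (−2.52) and HELB (−2.01) the furthest down, whereas RPA3 rose (2.12). In DNMT1, against 9.56% of all genes, 3 of 24 partners, 1 of 27 helicases and 4 of 21 recombination genes were enriched, among them the replication clamp PCNA (1.46) and RAD54L (1.52).

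SUZ12 was also described by the sequence features of the mRNAs. It enriched 22.1% of the 13579 mRNAs, 17.4% of the 10366 without GAAGAAGA, 48.2% of the 1047 with at least 2 copies and 67.6% of the 111 with at least 5, and 65.3% of the 1357 with 20 or more exons against 11% of the 8888 with under 10. WRN, with 5 copies and 35 exons, belongs to the groups with the highest shares. BLM has 2 copies and 22 exons, RECQL 2 copies and 15 exons. RECQL5, with no copy and 20 exons, was enriched as well, and so was RECQL4, which has no copy and whose leading isoform, a fragment of 5 exons, was counted in the group with under 10, while its full-length transcript has 22. In STAG2, leaving out WRN, 0.67% of all mRNAs were enriched, 0.909% of the 110 with at least 5 copies and 1.77% of the 1356 with 20 or more exons. The word is part of a motif derived from SUZ12 values of these libraries, and the study also examined exon number in them, so the SUZ12 shares are a description and no independent evidence for either feature. The word, the exon number and the length of the mRNA were not separated here.

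**Figure D4:**
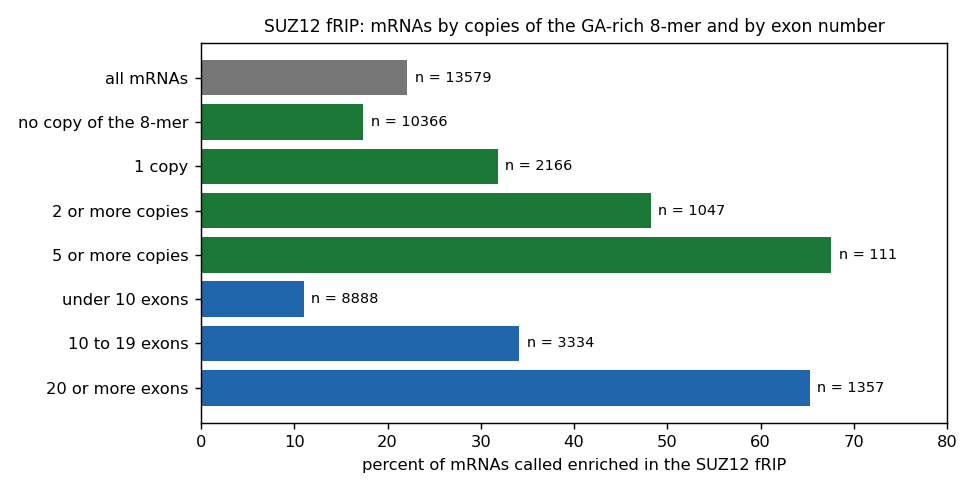
Percent of mRNAs enriched in the SUZ12 fRIP (over 2-fold, adjusted p under 0.05), by copies of the GA-rich word and by exons of the leading isoform, with the number of mRNAs beside each bar. The share runs from 17.4% without a copy to 67.6% with 5 or more, and from 11% with under 10 exons through 34.1% with 10 to 19 to 65.3% with 20 or more.

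Across the 25 group means (24 fRIPs and input), the genes most like WRN were CSPP1 (Pearson r = 0.93), KIAA1731 (0.88) and CCDC18 (0.88), and those most like BLM were ECD (0.90), RP11-347C12.2 (0.90) and RBL1 (0.89). COPB2 (0.93), CDC6 (0.90) and APPBP2 (0.86) were most like RECQL, RPS6KA4 (0.97), RHOT2 (0.96) and PIDD (0.95) most like RECQL4, and CC2D1A (0.97), IRF9 (0.96) and AP1G2 (0.96) most like RECQL5. Among members RECQL4 and RECQL5 were the nearest pair (r = 0.70), RECQL and RECQL5 the most distant (0.29), and WRN was closest to BLM (0.50). These are descriptions over means that share libraries and depth, and those of WRN include its STAG2 mean, which led to its choice.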

How the data were processed

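The files held FPKM of genes and isoforms in 70 fRIP libraries and 9 input libraries. The authors made these FPKM values from paired-end reads of 31 bases aligned to hg19 with TopHat, with GENCODE v18 as annotation, and estimated abundance with Cuffdiff. Cuffnorm and CASAVA 1.4 are also named in the submitters' processing notes. No source used here gives the read filters. Significance tables from the authors' own comparisons hold fold changes and p-values and were not used. Total counts are not among the files used, so depth was read approximately from the steps between low FPKM values (95.6% to 99.8% of them within 0.15 of a whole multiple), and no counting interval is given.

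Features reaching 1 FPKM in 2 libraries or more (25442 genes, 104506 isoforms) were taken to log2(FPKM + 1), a scale that understates changes of low features. One limma 3.58.1 model with trend (R 4.3.3) held a mean per protein and 1 mean for the 9 inputs. P-values were Benjamini-Hochberg adjusted over all features within a comparison. A call needed an adjusted p under 0.05 and over 2-fold. Exact permutation tests over libraries, two-sided, were run for the members. The model was checked on simulated data. Isoform types, exons and sequences came from GENCODE v44 lifted to GRCh37, in which 48 of the 51 isoforms were found, 19 in the same version. Named isoforms had a mean of at least 1 FPKM in input or in a fRIP where they were called, and of these a selection is given. Named neighbours overlapped a member or lay within 5 kb.

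The members, lists and tests were chosen with earlier results of these data known. The table numbers the second STAG2 library differently from its label, so it is called by its group. Alternatives were other pseudocounts, filters, library centring, each input set alone, a fit per protein, the replicate number as a block, and leaving out each library. Same-numbered libraries of CHD1, NUP98, PCAF and WDR5 deviated together with those of input set 2 in all 3 pairs (lowest r 0.129 to 0.171), a pairing taken from the data. Some items are not reported here.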

Additional observations from a re-analysis of the deposited data

Results flagged for a closer look

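RECQL4 was at 98.1 FPKM in input set 2 replicate 3, far from the next highest input at 73.5, a gap of 0.496 of the range of the 9 inputs, and chance alone sets apart about 1 in 20 such groups. The limma call of RECQL4 in HNRNPU was at −0.94 without that library and so under 2-fold.

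In contrasts between fRIPs of related proteins, added after the values were seen, the effects of SUZ12 and EZH2 differed for WRN (2.80 on the log2 scale), BLM (2.01), RECQL5 (1.84) and RECQL (1.08), and those of CBX3 and phospho-CBX3 for RECQL4 (1.08). Of the 3 contrasts made, WDR5 against RBBP5 gave differences under 2-fold, the furthest being −0.83 for WRN (adjusted p = 6.3e-05 by limma).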

How the results depend on the processing

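Over the alternatives the number of enriched pairs of a member and a fRIP ran from 13 to 15 and that of depleted pairs from 6 to 9. Leaving out each library gave 13 to 15 and 6 to 8. These are counts only, and centring changed which pairs were called. Of the 21 called pairs 13 kept their call under every alternative, and the other 8 are given with their values beside each result. Enriched isoform calls ran from 97 to 113, and depleted ones from 41 with each library centred on its median to 96, against 64. In STAG2, RECQL4 turned to −0.27 and RECQL5 to −0.00244 with the replicate block, and RECQL5 to −0.078 against input set 1 alone. Without 1 library in turn, BLM in STAG2 ran from −0.40 to 0.15, RECQL4 from −0.33 to 0.54, RECQL5 from −0.017 to 0.50 and RECQL from 0.08 to 0.70. For all 4 the lowest value came without the second STAG2 library and the highest without the first, and the cause was not tested. The replicate block, and the block within input set 2, left the counts of member calls at 14 and 7. Depth limits RECQL4 and RECQL most, with about 59 to 74 and 65 to 93 fragments in ADAR. The RECQL4 count is partial, since some of its isoforms were not found in the annotation.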
